A study of Homo sapiens with 9 samples.

Results

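The mRNAs examined came from 10 human genes whose products fold, check or admit proteins at the endoplasmic reticulum (ER): the chaperones HSPA5, HSP90B1, CALR and CANX, the protein disulphide isomerases PDIA3, PDIA4, PDIA6 and P4HB, and the translocon genes SEC61A1 and SSR1. The genes were given as a list of names, and every peak that overlapped one of them on its strand was taken, which gave 10 of 20046 protein-coding genes and 4547 of 2478204 merged peaks. In antibody-barcode eCLIP (ABC), DNA barcodes on the antibodies are joined to the RNA that each antibody's RNA-binding protein (RBP) holds, so that several RBPs are profiled in 1 tube. The same 10 RBPs (RBFOX2, PUM2, DDX3, FAM120A, ZC3H11A, LIN28B, SF3B4, EIF3G, PRPF8 and IGF2BP2) were profiled in 3 pools of K562 cells, a human erythroleukemia line, and 2 pools of HEK293 cells, a human embryonic kidney line. The titles of the HEK293 pools read HEK293T and the study's methods HEK293XT, while the cell line tag of both pools reads K562. Both are also titled as replicate 1 and were numbered 1 and 2 here, and the tag of K562 replicate 3 is spelled differently from its title. This gave 50 multiplex libraries, to which 4 singleplex libraries were added, 2 for RBFOX2 in HEK293 cells and 2 for SLBP in K562 cells. No treatment or genotype other than the line itself is given in the labels, and no label says that the pools came from separate cultures, so the tests measure only the spread between these pools.

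Secreted and membrane proteins enter the ER through the SEC61 channel while they are being translated. In the lumen and at its membrane, HSPA5 (BiP) and HSP90B1 (GRP94) bind unfolded chains, the lectins CALR and CANX hold glycoproteins in the folding cycle, and the disulphide isomerases form and rearrange disulphide bonds. LIN28B is best known for blocking the maturation of let-7 microRNAs, in which its zinc knuckles recognise GGAG, and it also binds many mRNAs, among them mRNAs destined for the ER. FAM120A and IGF2BP2 are known from 3′ untranslated regions (UTRs), DDX3 and EIF3G from translation initiation, and PRPF8 and SF3B4 from the spliceosome. The question was where LIN28B lay on these 10 mRNAs, against the other RBPs of the same tube, in the coding sequence and in the UTRs.

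Reads in peaks were summed per gene and region and given as RPM, reads per 1000000 reads in the peaks of that library. In K562, LIN28B libraries held 148564 to 237716 reads, and in HEK293 221273 to 276706, within a range of 13666 (PUM2) to 2197813 (FAM120A) in K562 and 24239 to 2981765 in HEK293. Every peak held at least 3 reads, a level of 1.36 to 220 RPM in K562 and 1.01 to 124 in HEK293, so a value of 0 is a limit that depends on the library. Markers of each line matched the line in its title: 10 of 10 erythroid genes had exonic peaks in every K562 pool and 0 in HEK293. Of the 4 genes taken as markers of HEK293 (NEFL, NEFM, INA and PAX2), 3 (all but PAX2) and 4 had peaks in the HEK293 pools and 0 in K562.

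The following coding sites carried LIN28B on these mRNAs, and each is shown because it was the LIN28B peak of its gene whose log2 fold over the other RBPs, averaged over pools, was largest among those enriched over them in every K562 pool. The 30 bases are GRCh38 sequence on the strand of the gene, around the GGAG (in capitals) nearest to the peak's centre within a 100-base window, or around the centre where the window held none, and were kept within the coding sequence.
CANX: aatagttgatgattgggccaatgatggatg
P4HB: tgccaccgcttcctGGAGggcaaaatcaag
PDIA6: gcatcattccctaGGAGgtcagtatggtgt
PDIA4: tcagttttggcGGAGcaaagtcctagaggt
SEC61A1: caaagcagctgaaGGAGcagcagatggtga
HSP90B1: ggtctggcaacatGGAGagaatcatgaaag

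The stretches shared by the peaks of the 3 K562 pools lay in coding exon 10 of CANX (chr5:179722937-179723005, + strand), coding exon 7 of P4HB (chr17:81846434-81846492, − strand), coding exon 4 of PDIA6 (chr2:10797159-10797202, − strand), coding exon 9 of PDIA4 (chr7:149005296-149005346, − strand), coding exon 11 of SEC61A1 (chr3:128067989-128068025, + strand) and coding exon 14 of HSP90B1 (chr12:103943785-103943827, + strand). The CANX window held no GGAG, and the other 5 held between 1 and 3. The windows reach beyond the peaks. The GGAG marked for PDIA4 lies outside the LIN28B peaks of all 3 K562 pools, with most of the bases printed around it. That of PDIA6 lies at the edge of the shared stretch.

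In the coding sequence, LIN28B was higher on the membrane chaperone CANX, on the isomerases P4HB, PDIA6 and PDIA4 and on the channel subunit SEC61A1 in K562 cells, and on CANX, P4HB and PDIA6 in HEK293 cells. On CANX, LIN28B had 1230, 1750 and 1104 coding RPM in the 3 K562 pools and 1062 and 734 in the 2 HEK293 pools. The other 27 K562 libraries ran from 0 with a median of 227 to 520 (PUM2), all below the lowest LIN28B pool. In HEK293, 1 of the 18 other libraries, EIF3G with 864, lay above the lower LIN28B pool, and the median was 367. The mean difference from the other 9 RBPs, on the scale of log2(RPM + 10), was 2.76 ± 0.67 (SE, adjusted p = 0.00196, limma) in K562 and 1.31 ± 0.34 (adjusted p = 0.0187) in HEK293.

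P4HB, a disulphide isomerase that is also a subunit of prolyl 4-hydroxylase, gave 786, 820 and 619 coding RPM for LIN28B in K562 and 773 and 448 in HEK293. None of the 27 other K562 libraries reached the lowest of these (median 115, highest 484 for DDX3), and 1 of 18 did in HEK293 (DDX3, 496). The log2 difference was 3.13 ± 0.76 in K562 (adjusted p = 0.00199) and 1.84 ± 0.44 in HEK293 (adjusted p = 0.0115). PDIA6, an isomerase that binds HSPA5, gave 309, 303 and 471 in K562 and 298 and 491 in HEK293. It was the member on which LIN28B stood apart from every other library in both lines, the highest of which were 211 (DDX3, K562) and 162 (PRPF8, HEK293). Its log2 difference was 3.12 ± 0.69 in K562 (adjusted p = 0.000777) and 2.59 ± 0.42 in HEK293 (adjusted p = 0.000793), where 9 of 27 and 3 of 18 other libraries had no coding peak in it. The share of all genes on which LIN28B lay above every other library is not given here. Such gaps on CANX, P4HB and PDIA6 are therefore not read as particular to these genes.

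PDIA4, which has several thioredoxin-like domains, gave 262, 215 and 229 for LIN28B in K562 and 149 and 177 in HEK293. In K562, 1 other library (EIF3G, 339) lay at or above the lowest LIN28B value, and in HEK293 2 did. The log2 difference passed in K562 (2.54 ± 0.67, adjusted p = 0.00416) and not in HEK293 (1.23). On SEC61A1, LIN28B had 121, 67.3 and 121 in K562 and only 31.6 and 14.5 in HEK293. The groups overlapped in both lines, with 2 of 27 K562 libraries at or above the lowest LIN28B pool (IGF2BP2, up to 152) and 10 of 18 in HEK293. Its log2 difference was 2.12 ± 0.49 in K562 (adjusted p = 0.00127) and 0.33 in HEK293, which did not pass. The HEK293 replicate 1 values of PDIA4 and SEC61A1 each include a LIN28B peak whose reads were recovered as too few, as given below.

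The other 5 members did not pass in either line. On the luminal lectin CALR, LIN28B had 410, 572 and 424 in K562 and 380 and 253 in HEK293, with 4 of 27 and 3 of 18 other libraries at or above the lowest of these (log2 difference 1.19 in K562). HSP90B1 had coding peaks in every library, with 1808, 1148 and 814 for LIN28B in K562 against an other-library median of 957, and 479 and 661 in HEK293 against 486. HSPA5 gave 605, 454 and 357 for LIN28B in K562, where 16 of 27 other libraries reached the lowest of these, and 136 and 94.0 in HEK293. On neither of these general chaperones did LIN28B stand apart, with log2 differences of 0.41 and 0.40 in K562 and 0.20 and 0.57 in HEK293. PDIA3, the isomerase that works with CALR and CANX, had 40.3, 114 and 148 RPM for LIN28B in K562 and 131 and 21.7 in HEK293 (log2 differences 0.96 and −0.06). SSR1, a subunit of the translocon-associated complex, had 114, 42.1 and 60.6, and 54.2 and 101 (1.40 and 0.87). Both overlapped the other libraries widely, with 19 and 12 of 27 at or above the lowest LIN28B pool in K562.

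**Figure D1:**
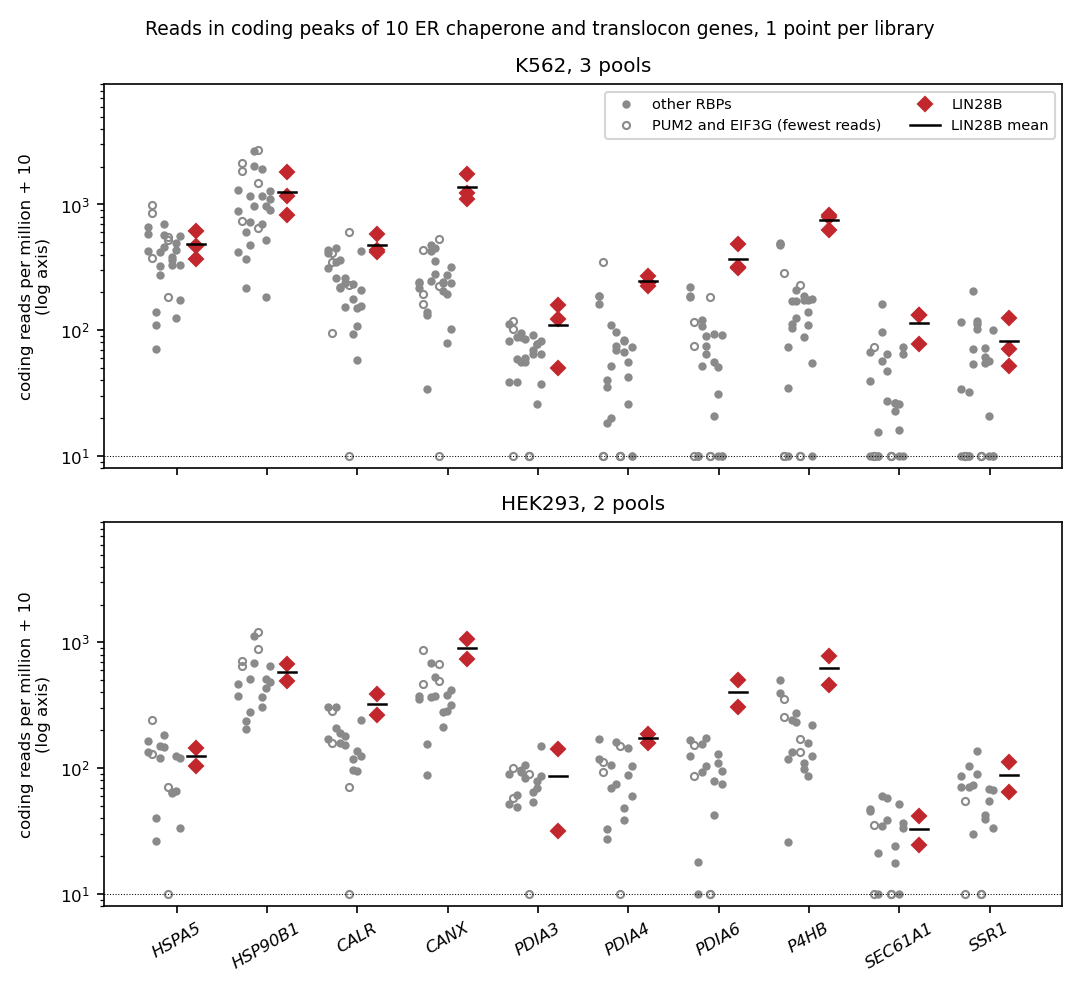
RPM in coding peaks of the 10 genes (log axis, 10 added; dotted line, no peak), 1 point per library, with LIN28B as diamonds, its mean as a bar, PUM2 and EIF3G as open circles and the other RBPs as filled circles. On CANX, P4HB and PDIA6 all 3 K562 diamonds lie above every other library, and on HSPA5 and HSP90B1 they lie among them.

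Thus 5 of the 10 genes passed in K562, where 26.8% of the 7445 genes tested did, and 3 of 10 in HEK293, where 11.6% of 10095 did; no member was lower. The median log2 difference over the members was 1.76 in K562 and 1.03 in HEK293, against 0.19 and −0.07 over all genes. The calls depended on the scaling and on single pools. The share of all genes that passed under each alternative below is not given here, so these counts are not read as particular to the members. LIN28B libraries held a mean of 43.3% of their reads in coding peaks in K562, and those of the other RBPs 7.0% to 24.1%. Scaled to the reads in coding peaks alone, 0 of 10 passed in either line and the median over all K562 genes moved from 0.19 to −0.22. The K562 differences of PDIA6, P4HB and CANX were then 2.77, 2.31 and 1.34, and those of HSP90B1 and CALR turned to −1.21 and −0.26. Without K562 replicate 3, 3 members passed in K562, and with either HEK293 pool left out 0 passed in HEK293.

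Relative to length, LIN28B coding reads were densest on CANX, with 766 ± 193 RPM per kb (SD, n = 3) in K562 and 506 ± 131 (n = 2) in HEK293. HSP90B1 (522 ± 210) and P4HB (487 ± 70.6) followed in K562, and P4HB (401 ± 151) and PDIA6 (299 ± 104) in HEK293. In K562 these next 2 differed by less than their spread, and so did P4HB and PDIA6 in HEK293. PDIA3 and SEC61A1 were lowest in both lines, at 66.4 and 72.2 in K562 and 50.4 and 16.1 in HEK293. These densities also carry the abundance of each mRNA, which cannot be told apart from binding here.

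In K562 cells, 0.756 ± 0.0957% of all LIN28B reads in peaks lay on the 10 genes (SD, n = 3), and in HEK293 cells 0.504 ± 0.0475% (n = 2). The coding sequence took 68.4 ± 3.49% of these reads in K562 and 64.4 ± 0.914% in HEK293, and the 3′ UTR 29.7 ± 3.46% and 33.6 ± 0.250%. Over whole LIN28B libraries the coding share was 43.3 ± 3.27% and 41.6 ± 5.88%. A high coding share on these genes was not particular to LIN28B, since RBFOX2 had 81.2 ± 8.01% and DDX3 59.9 ± 8.42% of its member reads there in K562. FAM120A (12 ± 5.76%) and IGF2BP2 (36.9 ± 12.3%) had the least.

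LIN28B was also higher in the 3′ UTRs of several members, although few of its peaks there were enriched over the other barcodes of the pool, as given below. In K562 these were SSR1, CANX, P4HB, PDIA6 and SEC61A1, 5 of 10 members where 14.5% of 6528 genes passed, and in HEK293 SEC61A1, CANX and PDIA3, 3 of the 9 tested where 12.5% of 8024 passed. On SSR1, whose 3′ UTR is 8724 bases long, LIN28B had 887, 930 and 774 RPM in K562 and 488 and 329 in HEK293. Only the 3 FAM120A libraries were as high in K562, against a median of 35.7, and the log2 difference was 3.41 ± 0.56 (adjusted p = 8.38e-05), whereas that in HEK293 (1.18, adjusted p = 0.0663) did not pass. On CANX, LIN28B had 780, 1115 and 747 in K562 and 610 and 665 in HEK293, with 6 of 27 and 3 of 18 other libraries at or above the lowest of these. The log2 differences were 2.81 ± 0.78 (adjusted p = 0.0118) and 2.23 ± 0.68 (adjusted p = 0.0383).

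SEC61A1 had the reverse order of lines in its 3′ UTR: 73.9, 101 and 121 in K562 and 294 and 195 in HEK293. In HEK293 these were above all 18 other libraries (highest 172, IGF2BP2), with a log2 difference of 2.82 ± 0.33 (adjusted p = 6.28e-05), and in K562 7 of 27 libraries overlapped (1.78 ± 0.36, adjusted p = 0.000807). P4HB (181, 164 and 182; 2.04 ± 0.44, adjusted p = 0.00158) and PDIA6 (20.2, 92.5 and 135; 1.90 ± 0.29, adjusted p = 3.16e-05) passed in K562, with 9 and 6 of the 27 other libraries at or above their lowest pool. In HEK293, PDIA3 passed with 27.1 and 25.3 (1.24 ± 0.18, adjusted p = 0.000403), where 3 of 18 other libraries reached that level and 11 had no peak. These are few reads, since 3 reads are 13.6 and 10.8 RPM for LIN28B. For PUM2 3 reads are 124 and 60.2 RPM, and for EIF3G replicate 1 35.8. The 0 of those libraries cannot place them below LIN28B. The HSP90B1 3′ UTR, of 267 bases, had no LIN28B peak in any pool, and HSPA5 gave −2.19 in K562 (adjusted p = 0.0773). Scaled to reads in 3′ UTR peaks, 1 member passed in K562, and without HEK293 replicate 1, 1 passed in HEK293.

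In the 5′ UTRs, LIN28B passed in limma on 0 of 9 members in K562 (CALR not tested; 4.18% of 3059 genes passed) and 0 of 10 in HEK293 (0.878% of 5011). With p below 0.05 before adjustment there were 1 in K562 (HSPA5, −1.46) and 2 in HEK293 (CANX, −1.79, and PDIA4, −0.85), all 3 with LIN28B below the other RBPs. The exact permutation test, whose smallest p is 0.001 with 3 pools and 0.01 with 2, passed 0 of all genes tested in 5′ UTRs in either line, so its 0 on the members adds nothing.

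**Figure D2:**
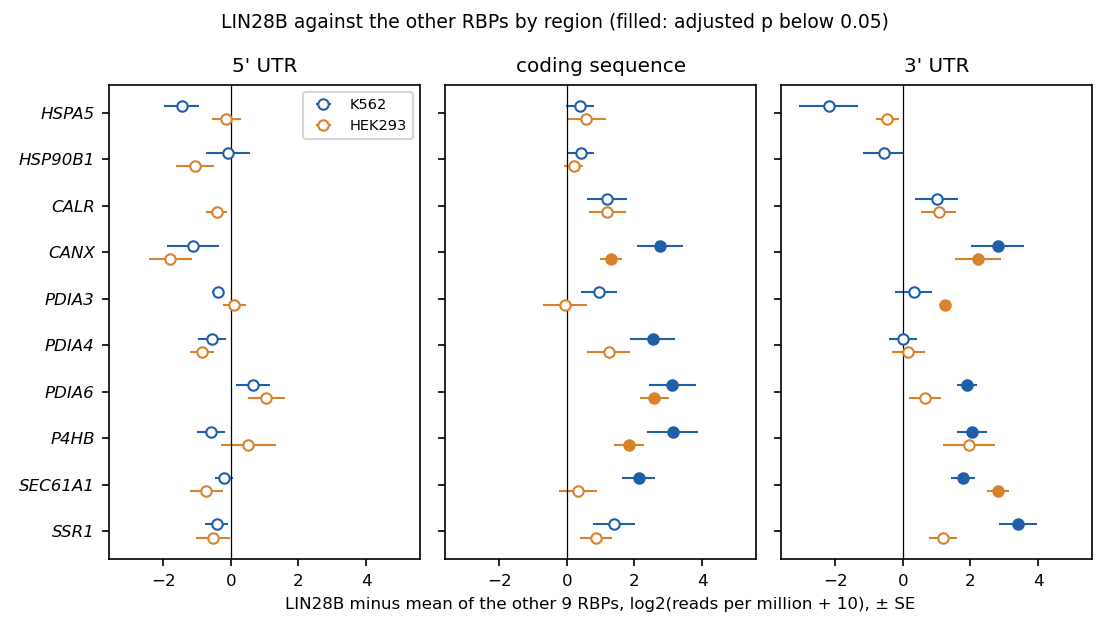
Difference between LIN28B and the mean of the other 9 RBPs, in log2(RPM + 10) with its SE, for the 5′ UTR, coding sequence and 3′ UTR of each gene in K562 (blue) and HEK293 (orange); filled points passed an adjusted p of 0.05 and missing points were not tested. The filled points lie right of 0 in the coding sequence and 3′ UTR, and none is filled in the 5′ UTR.

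The coding differences of LIN28B were set against each other between lines. None of the 10 members differed between HEK293 and K562 after adjustment, where 6.95% of 10801 genes did in either direction, and 1 had p below 0.05 before it. That was SEC61A1, at −1.80 ± 0.76 (HEK293 minus K562, adjusted p = 0.172), while CALR was at 0.01 ± 0.86. The SEs ran from 0.48 to 1.08 log2 units over the members, so that a difference of that size could not be detected with 3 and 2 pools.

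Within a pool, the other 9 barcodes also serve as a complement control (CC) for each peak, and peaks were called enriched over it where P was below 0.001 and the fold above 8. For LIN28B, 8 of 51, 9 of 54 and 11 of 61 coding peaks of the 10 genes with a CC value were enriched in the K562 pools, and 13 of 55 and 9 of 52 in the HEK293 pools. These shares, 15.7% (95% Wilson interval 8.17% to 28.0%), 16.7% (9.02% to 28.7%) and 18.0% (10.4% to 29.5%) in K562, were below the 46.9%, 42.6% and 30.7% of all LIN28B coding peaks in the same pools. In HEK293 they were 23.6% (14.4% to 36.3%) and 17.3% (9.38% to 29.7%), against 33.7% and 21.7%, and the latter lie inside the intervals. Intervals here cover counting error only, and 10, 9 and 0 LIN28B peaks of the members in K562 and 12 and 11 in HEK293 had no CC value. In the 3′ UTRs of the members, 3 of 66 LIN28B peaks in K562 and 4 of 42 in HEK293 were enriched over the CC (4.55% and 9.52%). Over all genes, 31.4% and 32.4% of LIN28B 3′ UTR peaks were.

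Even so, 6 genes had an enriched LIN28B coding peak in every K562 pool (CANX, HSP90B1, P4HB, PDIA4, PDIA6 and SEC61A1), as did 45.5% of the 2032 genes with a LIN28B coding peak in every pool. In HEK293 there were also 6 (CALR, CANX, P4HB, PDIA4, PDIA6 and SEC61A1), against 34.3% of 3518. CANX, P4HB, PDIA4, PDIA6 and SEC61A1 were on both lists. PDIA3, HSPA5 and SSR1 were on neither, and SSR1 had no enriched coding peak in any of the 5 pools.

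In K562 the highest folds were at the CANX site printed above. It held 71, 232 and 102 LIN28B reads against 30, 95 and 47 CC reads in the 3 K562 pools, a log2 fold over the CC of 5.27, 5.40 and 5.27 once scaled to the share of LIN28B in each pool. In HEK293 the same exon held 77 and 58 reads against 107 and 176, log2 folds of 3.98 and 3.20. The PDIA4 and SEC61A1 sites were not below CANX in HEK293 replicate 2, with log2 folds of 3.45 and 3.22. In replicate 1 the numbers recovered were 5 and 3 LIN28B reads against 0 CC reads. These are too few to give the −log10 P of 35.5 and 21.8 of these peaks, so the recovery failed there and no fold is given. At CANX LIN28B outnumbered the other 9 RBPs together there in all 3 K562 pools and in neither HEK293 pool. Over the LIN28B coding peaks of CANX with a CC value, LIN28B made up 27.4% (Wilson interval 23.6% to 31.7%), 42.8% (39.5% to 46.1%) and 32.0% (28.1% to 36.2%) of the reads in K562, and of the pool's reads 5.78%, 5.45% and 5.32%. These peaks were called on LIN28B reads, so a share above that of the pool is not by itself a result. On SSR1, with no enriched coding peak, the shares were 8.99%, 8.40% and 9.78%.

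The P4HB site held 51, 115 and 61 reads against 45, 67 and 76 in K562, with a mean log2 fold of 4.31, and 66 and 49 against 102 and 152 in HEK293, with a mean of 3.50. The SEC61A1 site, on few reads, held 15, 11 and 6 against 8, 20 and 9 in K562 (3.92). The PDIA6 site held 5, 9 and 10 against 3, 11 and 13 (4.12), the PDIA4 site 11, 14 and 12 against 10, 18 and 24 (3.69), and the HSP90B1 site 25, 32 and 15 against 40, 52 and 29 (3.32). All 6 sites passed in each K562 pool. The best HSPA5 coding site, in coding exon 4, reached only 2.21, with 23, 28 and 12 reads against 71, 110 and 50.

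LIN28B coding reads lay toward the end of some of these open reading frames. With each coding sequence cut into 3 equal parts, 98.3% of the LIN28B coding reads on CANX in K562 and 92.5% in HEK293 were in the third, where the other RBPs had 68.2% and 67.2% of theirs. The site printed above lies 76.0% of the way along the coding sequence. PDIA4 and SSR1 had 50.0% and 88.9% of LIN28B reads in the first part in K562, so the pattern was not shared by all members. Over the 10 genes, LIN28B had 64.3% in the last part in K562 and 57.0% in HEK293, and the other RBPs 55.1% and 56.7%.

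**Figure D3:**
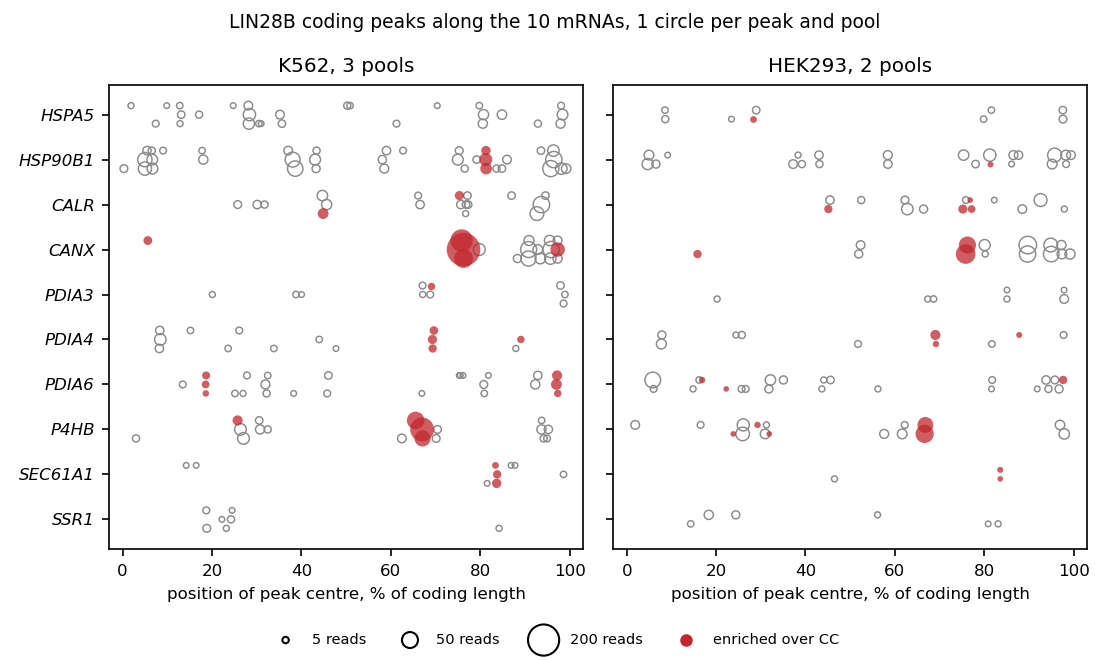
LIN28B coding peaks along the 10 mRNAs in K562 (3 pools) and HEK293 (2 pools), placed by the peak centre in % of the coding length, with circle area by reads and filled red circles for peaks enriched over the CC. The largest red circles are near 76.0% of CANX and 67.0% of P4HB in both lines, and SSR1 has no red circle.

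GGAG was looked for on the transcribed strand, in GRCh38 sequence, in the 100 bases centred on each coding peak. It was in 22 of 28 windows (78.6%, Wilson interval 60.5% to 89.8%) of LIN28B peaks of the members enriched over the CC in K562, and in 64 of 138 (46.4%, 38.3% to 54.7%) of those not enriched. In HEK293 these were 14 of 22 (63.6%, 43.0% to 80.3%) and 37 of 85 (43.5%, 33.5% to 54.1%). Coding peaks of the other 9 RBPs on the members held it in 42.2% and 40.4% of windows, and those on all genes in 49.5% and 50.7%, the background for this length. Over all genes, LIN28B coding windows held it in 59.3% and 58.3%, with little difference between enriched peaks (59.9% in K562 and 58.4% in HEK293) and those not enriched (58.2% and 57.5%). Pools share sites, so the same sequence is counted more than once. The coding sequences themselves differ in GGAG, from 17.1 per kb in P4HB and 14.4 in CALR to 7.32 in CANX and 2.33 in SSR1, which does not follow the order of the LIN28B densities given above.

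Other genes of the same compartment were taken as lists, which were drawn up with earlier results of these data known. Of 27 other ER folding genes tested in K562 coding peaks, LIN28B was higher on 17 and lower on 0, with a median log2 difference of 1.74. Examples were the glucosidase subunit GANAB (4.04 ± 0.49), the calcium-binding CALU (3.83 ± 0.51) and the lysyl hydroxylase PLOD1 (3.69 ± 0.47). Of 25 genes of the translocon, signal peptidase, targeting and oligosaccharyltransferase, 7 were higher, close to the 26.8% of all genes, among them SEC11A (3.01 ± 0.36), SEC63 (2.39 ± 0.52) and SRPRA (2.20 ± 0.57), with a median of 0.52. Of 14 genes of the unfolded protein response and ER-associated degradation, 5 were higher, with VCP at 3.09 ± 0.46, DERL1 at 2.47 ± 0.31 and XBP1 at 2.29 ± 0.43. Higher levels were not limited to ER genes, since of 20 cytosolic and mitochondrial chaperones 14 were higher, with a median of 2.51, led by the chaperonin subunits CCT7 (4.70 ± 0.61) and CCT4 (4.30 ± 0.61).

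In HEK293 cells, 10 of 31 other ER folding genes, 6 of 29 translocon and targeting genes, 3 of 15 genes of the unfolded protein response and degradation and 4 of 20 cytosolic and mitochondrial chaperones were higher for LIN28B, and none was lower. The medians were 1.18, 0.67, 0.01 and 1.30, against −0.07 over all genes. PLOD1 (3.29 ± 0.35), DERL1 (2.06 ± 0.24), SEC11A (2.03 ± 0.47), CCT4 (2.98 ± 0.61) and CCT7 (2.93 ± 0.75) passed again, whereas GANAB (2.12 ± 0.74, adjusted p = 0.0766) and VCP (0.50 ± 0.47) did not.

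FAM120A, IGF2BP2 and ZC3H11A were higher in the 3′ UTRs of several members, ZC3H11A also being lower on PDIA6 in K562 (−1.36), and DDX3 and EIF3G in 5′ UTRs. FAM120A was higher in the 3′ UTR of 9 of 10 members in K562 and 7 of 9 in HEK293, near to its 69.0% and 64.6% of all genes. On SSR1 it had 3055, 4537 and 3527 RPM in K562 and 3485 and 3464 in HEK293, and on CANX 1578, 2333 and 2287, and 2463 and 1895. No library of another RBP exceeded 930 on the SSR1 3′ UTR, and the log2 differences were 5.72 ± 0.56 (adjusted p = 7.07e-09) and 4.60 ± 0.42 (adjusted p = 7.29e-07). Of its 3′ UTR peaks on the members, 95 of 217 in K562 and 94 of 171 in HEK293 were enriched over the CC (43.8% and 55.0%, against 32.7% and 42.9% over all genes). In the coding sequence FAM120A was lower on HSP90B1, HSPA5 and PDIA6 in K562, where 0.792% of all genes were lower, and on CANX, HSP90B1, P4HB and PDIA6 in HEK293, where 1.71% were. PDIA6 had 275, 396 and 541 FAM120A RPM in its 3′ UTR and none in its coding sequence in K562, where LIN28B had most of its PDIA6 reads in the coding sequence.

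IGF2BP2 was higher in the 3′ UTR of 8 of 10 members in K562 (52.1% of all genes) and 6 of 9 in HEK293 (48.3%), with log2 differences of up to 3.80 ± 0.63 on CALR in K562. ZC3H11A, an mRNA export factor, was higher in the 3′ UTR of HSP90B1, P4HB and SEC61A1 in K562 (6.34% of all genes) and of HSPA5, PDIA3, PDIA4 and SEC61A1 in HEK293 (11.5%). On P4HB it had 274, 481 and 641 in K562 and 427 and 222 in HEK293, and the log2 difference was 3.45 ± 0.44 (adjusted p = 1.10e-05) in K562 and 2.21 ± 0.78 (adjusted p = 0.0620) in HEK293. It was lower on PDIA6 in K562, at −1.36 ± 0.29 (adjusted p = 0.00243), with no 3′ UTR peak there in any pool. EIF3G, PRPF8, PUM2, RBFOX2 and SF3B4 had no peak there in K562 either, so ZC3H11A did not differ from these. In its K562 libraries 3 reads are 27.2 to 54.9 RPM. Unlike for FAM120A, few 3′ UTR peaks of these 2 RBPs on the members were enriched over the CC. For IGF2BP2 these were 8 of 145 in K562 and 4 of 109 in HEK293 (5.52% and 3.67%, against 14.6% and 8.45% over all genes). For ZC3H11A they were 1 of 44 and 0 of 40 (2.27% and 0%, against 24.1% and 16.8%).

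In the 5′ UTRs, DDX3, a helicase that unwinds leaders, was higher on 8 of 9 members in K562 (65.8% of all genes), with SSR1 the exception at 0.34, and on 9 of 10 in HEK293 (68.0%), with CALR the exception at 0.64. Its largest difference in K562 was on PDIA6 (190, 238 and 197 RPM; 3.93 ± 0.51, adjusted p = 5.05e-07). EIF3G was higher on HSPA5 and CANX in K562 (15.3% of all genes) and on CALR, HSPA5, PDIA3 and PDIA4 in HEK293 (22.7%). On the HSPA5 leader, EIF3G had 1631, 2188 and 1353 RPM in K562 and 239 and 141 in HEK293. Per kb of leader these were 7517, 10084 and 6235 RPM in K562, above the level of any other RBP on any member's leader (highest 4114, DDX3 on CALR), with log2 differences of 5.25 ± 0.53 (adjusted p = 3.58e-08) and 3.34 ± 0.43 (adjusted p = 5.01e-05). Of the 270 contrasts of a member that compare these other RBPs between lines, 5 passed: DDX3 on the 5′ UTRs of PDIA3 and PDIA6 (35.3% of all genes), EIF3G on that of PDIA3 (16.5%) and PUM2 on the 3′ UTRs of P4HB and SSR1 (5.93%). For EIF3G on HSPA5 the difference between lines was −1.91 ± 0.75 (HEK293 minus K562), which did not pass (adjusted p = 0.0800). Of the DDX3 5′ UTR peaks on the members, 13 of 34 in K562 and 2 of 22 in HEK293 were enriched over the CC (38.2% and 9.09%, against 40.4% and 32.4% over all genes). For EIF3G these were 7 of 18 and 5 of 18 (38.9% and 27.8%, against 53.6% and 39.5%). DDX3 was also higher in the coding sequence of P4HB, PDIA4 and PDIA6 in K562 (10.3% of all genes). Over the 9 RBPs other than LIN28B, 68 of 522 contrasts of a member passed as higher and 56 as lower, where 10.6% and 4.88% of the contrasts of all genes did. When scaled to the reads in peaks of the same region, 25 passed as higher and 14 as lower.

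**Figure D4:**
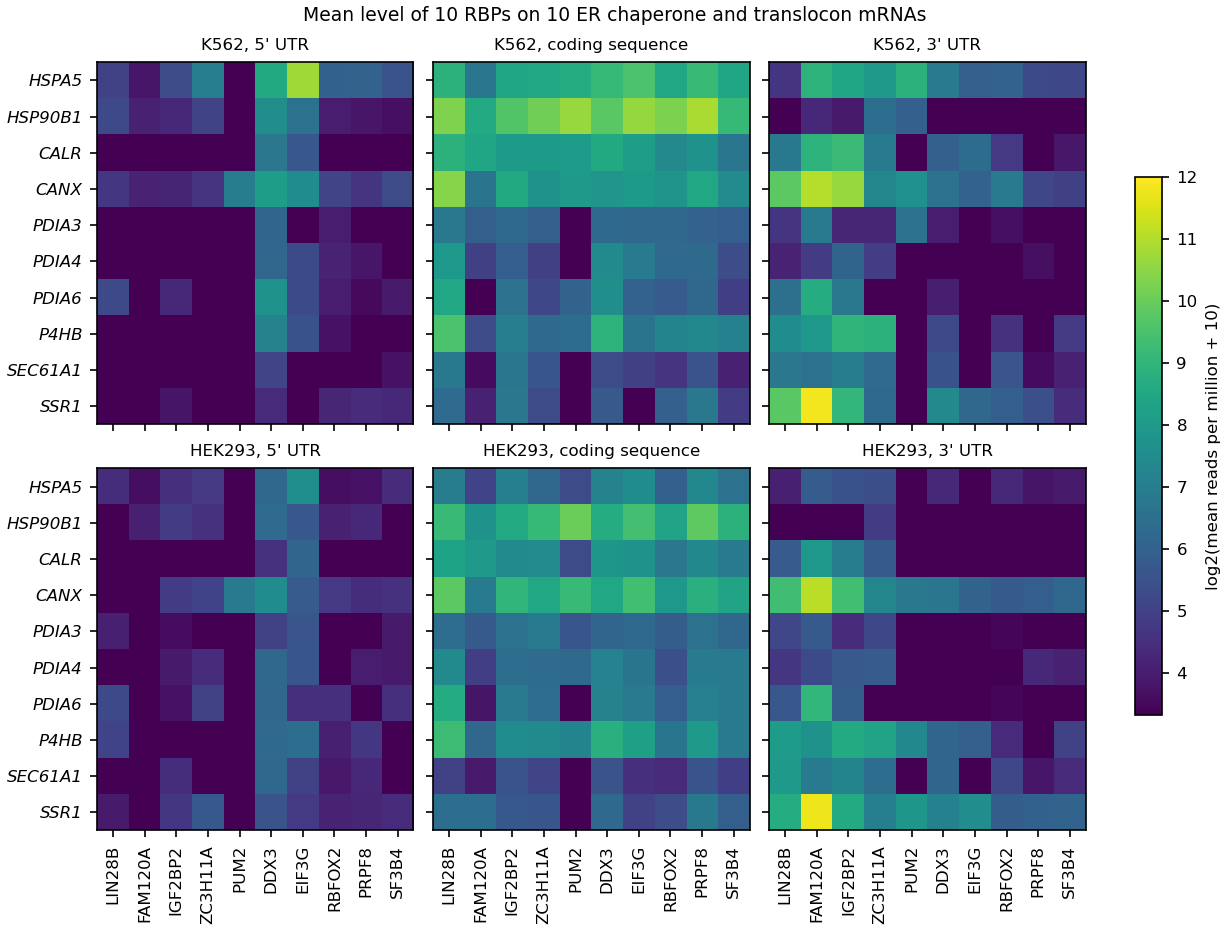
Mean level of each RBP (columns) on each of the 10 genes (rows) by region and line, as log2(mean RPM + 10) over 3 K562 or 2 HEK293 pools, with 3.32 for no reads. In the coding panels LIN28B has the brightest cell of the CANX, PDIA6 and P4HB rows, and FAM120A on SSR1 and EIF3G on HSPA5 are the brightest cells of the 3′ UTR and 5′ UTR panels.

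Splicing factors gave intronic reads on the members. PRPF8 had 523, 510 and 820 RPM in the introns of HSPA5 in K562 and 52.0 and 13.1 in HEK293. Its intronic share of member reads was 32.0 ± 10.7% in K562 and 13.2 ± 7.73% in HEK293, and that of SF3B4 39.7 ± 19.9% and 18.6 ± 7.32%. LIN28B had 0.692 ± 0.479% and 0.529 ± 0.204%. Over whole libraries, PRPF8 had 49.5%, 50.9% and 56.3% of its reads in introns in the K562 pools and 35.6% and 26.6% in the HEK293 pools. SF3B4 had 41.5%, 48.4% and 48.6%, and 43.0% and 31.2%. A high intronic share was thus not particular to the members. In the singleplex libraries, RBFOX2 had 191 and 146 peaks on the 10 genes, of which 7 and 3 were enriched over the external background, all in introns of CANX, PDIA4, PDIA6 or SSR1. Of all RBFOX2 peaks in these 2 libraries 8.63% and 12.5% were enriched, a larger share than on the members. SLBP, which binds histone mRNAs, had 27 and 8 peaks on the members, of which 18 and 8 were enriched over that background, where 37.8% and 99.9% of all its peaks were, so the 8 of 8 say nothing particular of the members. The 27 peaks of replicate 1 held 127 reads in all. In the K562 multiplex libraries the external background held at most 1 read at 91.0% of member peaks. The 18 of 27 are therefore not read as particular to the members either.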

How the data were processed

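The authors trimmed reads with cutadapt 2.8, aligned them to GRCh38 with STAR 2.7.6, removed PCR duplicates by molecular identifiers and called peaks with CLIPper in each library, with no pooling. They deposited each CLIPper peak with its p-value and a display score, and merged peaks with the −log10 P (capped at 400) and log2 fold of their reads over an external background, by the methods RNA-seq, which the sources do not name library by library. For the CC, the authors deposited a −log10 P and log2 fold for K562 replicate 3 and, for the other 4 pools, an unsigned chi-squared value and its p-value, from which CC reads and their direction were solved, after a test on replicate 3. The RBP of a multiplex library is known from its deposited file.

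Reads per peak were recovered from the deposited values, as whole numbers behind the fold. In K562 replicates 1 and 3 and singleplex RBFOX2, where peak names give the reads, 96.9% to 99.6% of recovered numbers equalled them. No such comparison was possible for K562 replicate 2, the HEK293 pools or SLBP, so the read numbers there are less certain. Peaks were assigned to GENCODE 44 genes and regions with Python 3.11.15, where the authors used an earlier release. Reads were summed per gene and region, scaled to 1000000 reads in the library's merged peaks (RPM), and tested as log2(value + 10) for genes with a peak in at least 3 libraries, with the pool as a block, in limma 3.58.1 (R 4.3.3; eBayes with trend and robust) and the correction of Benjamini and Hochberg at 0.05 over all genes of a region. The scripts were tested on simulated data. Pool numbers were kept as a block because the 10 barcodes of a pool share a tube. The named genes were the 10 members, and in each other list at most the 3 with the largest LIN28B coding difference in K562. The members and lists were chosen with earlier results of these data known.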

Additional observations from a re-analysis of the deposited data

Results flagged for a closer look

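Over the 9 RBPs other than LIN28B, the difference from the remaining 9 RBPs was itself tested between lines (HEK293 minus K562, limma) in 270 contrasts of a member, and 5 passed. DDX3 was less far above the other RBPs in HEK293 on the 5′ UTR of PDIA3, with 63.4, 59.6 and 62.3 RPM in K562 and 17.6 and 26.0 in HEK293 (−1.52, adjusted p = 0.000378), and of PDIA6, with 190, 238 and 197 against 108 and 17.9 (−2.19, adjusted p = 0.0293), where 35.3% of genes passed. EIF3G on the 5′ UTR of PDIA3 gave 2.21 (adjusted p = 3.53e-06, where 16.5% of genes passed), with 59.6 and 19.2 in HEK293 and no peak in K562, where 3 reads are 63.7 to 92.3 RPM and so above both HEK293 values. PUM2 on the 3′ UTRs of P4HB (3.47, adjusted p = 0.00899) and SSR1 (3.90, adjusted p = 0.00177) had 248 and 60.2, and 124 and 341, in HEK293 and no peak in K562, where 3 reads are 161 to 220; 5.93% of genes passed. The part of depth in these 3 results was not tested. Of 13 alternatives, DDX3 on PDIA3 passed under 11 and on PDIA6 under 6, EIF3G on PDIA3 under 12, and PUM2 on P4HB under 9 and on SSR1 under 12.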

How the results depend on the processing

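Scaling to reads in peaks of the same region, an alternative added after seeing the data, as were all those for the other RBPs, changed many counts. For LIN28B it left 0 of 10 members in the coding sequence in K562 and 0 in HEK293, and 1 in the 3′ UTR in K562, and for the other RBPs 25 calls as higher in place of 68 and 14 as lower in place of 56, and 1 of 5 calls between lines. HSP90B1 and CALR then turned to −1.21 and −0.26 in K562 coding peaks, without passing. The share of all genes that passed under this scaling is not given here. By the exact permutation of RBP labels within pools, whose smallest p is 0.001 with 3 pools and 0.01 with 2, 4 members passed in K562 coding peaks, and 0 in K562 3′ UTR, HEK293 coding and HEK293 3′ UTR peaks. In HEK293 the limit of 0.01 applies before the correction over all genes, so the 0 there cannot be read as a result about the members. With PUM2 and EIF3G left out, 5 passed in the HEK293 3′ UTR. A pseudocount of 100 gave 1 member that differed between lines for LIN28B and 9 calls for the other RBPs, and one of 1 gave 3, against 0 and 5. Leaving out 1 pool at a time gave 3 to 4 members for LIN28B in K562 coding peaks, 0 to 1 in the K562 5′ UTR, 0 to 0 in HEK293 coding peaks, 1 to 2 in the HEK293 3′ UTR and 0 to 1 in the HEK293 5′ UTR, and 7 to 9 calls between lines for the other RBPs. The differences ranged from −0.14 to 1.67 for PDIA6 in the K562 5′ UTR, and in HEK293 from −0.13 to 2.26 for CALR and −0.87 to 2.20 for PDIA6 in the 3′ UTR and −0.43 to 0.64 for PDIA3 in the 5′ UTR, which was −0.0031 with a pseudocount of 100. Where a pool was left out of HEK293, the lone pool was assumed to vary like the pooled spread.

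The mean of 9.33 CC-enriched LIN28B coding peaks of the members per K562 pool was 3 with P below 1e-05 and a fold above 16, 26.7 with any fold above 1 and 49.7 over the external background. The 11 in HEK293 became 2.5, 24.5 and 1. The 6 genes with such a peak in every K562 pool became 1 at the stricter limits and 10 over the external background, and the 6 in HEK293 became 0 and 0. At 91.0% of the member peaks in K562 the external background held at most 1 read, and in HEK293 a median of 855, so that folds over it are not comparable between lines. Without the replicate block, 5, 5 and 0 members passed in K562 coding, 3′ UTR and 5′ UTR peaks, 3, 3 and 0 in HEK293, and 64 in place of 68 calls as higher for the other RBPs. Of 202 called values of single members under the alternatives, 46 no longer passed, 17 others passed, and 42 of 862 changed sign, none of them past the threshold on either side. The causes were not tested. PUM2 and EIF3G, the shallowest libraries, limit what a value of 0 means.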

Other observations

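Of RBFOX2 coding peaks on the members, 1 of 176 windows in K562 and 1 of 169 in HEK293 held GCATG, the motif of RBFOX2 (Wilson intervals 0.100% to 3.15% and 0.105% to 3.28%), below the 8.89% and 9.77% of its coding windows on all genes. Pools share sites on these 10 genes, so the windows are not independent and the intervals cover counting error only. In introns of the members it was in 6 of 27 and 16 of 55 windows (intervals 10.6% to 40.8% and 18.8% to 42.1%), and in 36.2% and 34.1% over all genes, which lie inside them. TGTANATA, the motif of PUM2, was in 2 of 8 windows of PUM2 3′ UTR peaks on the members in K562 and 0 of 9 in HEK293, against 27.6% and 19.3% over all genes. These windows are 100 bases of GRCh38 on the strand of the gene, and the PUM2 counts on the members are too few for a comparison.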
